A study of Drosophila melanogaster with 2 samples.

Results

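Among the sites where the transcription factor Sox102F was mapped in fly prepupae, 1393 of 7055 summits (19.7%) lay inside an intron of a protein-coding gene, more than 1 kb and at most 5 kb from the nearest annotated start. They were chosen by position alone. A summit, the base of highest signal in a peak, was kept when it fell inside a protein-coding gene body, outside every annotated exon, and in that distance range from the closest start of any gene other than a transposable element. The other summits comprised 3299 within 1 kb of a start, 1120 in introns over 5 kb from a start, 634 between genes at 1 to 5 kb, 440 between genes at over 5 kb, and 169 at other positions.

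The animals were Drosophila melanogaster of a transgenic line, Sox102F-GFP, which stably expresses Sox102F with GFP at its C terminus. Whole white prepupae of pooled sex and unknown age were used, chromatin was sheared by sonication, and the label text says the precipitation used an antibody to GFP, although a second label field gives Sox102F as the antibody. There were 2 samples, biological replicates 1 and 4, in 1 group, with no contrast of genotype or stage. Both come from 1 line, and whether the animals also make untagged Sox102F is not stated. Because whole animals were used, a site bound strongly in few cells and a site bound weakly in many cannot be told apart.

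Sox102F belongs to the SOX family, whose members bind the minor groove of DNA through an HMG domain and bend it. They prefer words such as ACAAT or ACAAAG. Transcription factors often act through enhancers, and in the compact fly genome many enhancers lie in introns, often in the long introns near the 5′ end of developmental genes. White prepupae are at the start of metamorphosis, when a pulse of the steroid hormone ecdysone, acting through the ecdysone receptor and the nuclear receptors it induces, drives larval tissues to die and imaginal discs to turn out into adult structures.

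Sequences at the summits were rich in A and T, and the SOX core word ACAAT, read on either strand, was present in fewer than 1 in 3 of them. The 8 strongest intronic sites that carry the core word within 50 bp of the summit, outside an arm that is not printed, are shown first, so that the word can be seen in its surroundings. The bases are those of the + strand of dm6, read from the release 6 RefSeq assembly, from 50 before to 50 after the summit, and capitals mark the core word in either direction.
CG32772 (chrX:4910340-4910440): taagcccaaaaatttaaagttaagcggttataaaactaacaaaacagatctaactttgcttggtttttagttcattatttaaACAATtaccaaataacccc
pum (chr3R:9229227-9229327): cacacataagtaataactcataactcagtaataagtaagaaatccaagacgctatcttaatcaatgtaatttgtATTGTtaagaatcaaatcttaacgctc
CG32264 (chr3L:3785173-3785273): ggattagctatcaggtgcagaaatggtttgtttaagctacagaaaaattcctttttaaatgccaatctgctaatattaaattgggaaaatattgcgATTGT
crb (chr3R:24296031-24296131): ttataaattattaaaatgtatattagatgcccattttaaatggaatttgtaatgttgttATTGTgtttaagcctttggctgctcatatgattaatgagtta
Trl (chr3L:14759473-14759573): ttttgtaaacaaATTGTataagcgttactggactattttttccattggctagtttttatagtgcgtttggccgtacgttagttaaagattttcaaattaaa
CG9837 (chr3R:8811626-8811726): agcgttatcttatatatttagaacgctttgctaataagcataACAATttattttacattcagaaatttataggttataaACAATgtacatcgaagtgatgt
eff (chr3R:14738604-14738704): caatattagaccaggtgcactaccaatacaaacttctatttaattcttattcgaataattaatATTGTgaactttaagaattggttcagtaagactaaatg
neur (chr3R:9031963-9032063): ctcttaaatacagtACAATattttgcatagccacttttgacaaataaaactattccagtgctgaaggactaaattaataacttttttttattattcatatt
The word sat at the very edge of the window in CG32264 and near the middle in crb, and only CG9837 held 2 copies. The 3 strongest sites without the word on the same arms are shown next, because they include the highest signals of all intronic summits in this range.
CG11050 (chr2L:6612656-6612756): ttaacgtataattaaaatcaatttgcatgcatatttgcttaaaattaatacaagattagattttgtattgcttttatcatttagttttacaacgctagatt
ush (chr2L:481033-481133): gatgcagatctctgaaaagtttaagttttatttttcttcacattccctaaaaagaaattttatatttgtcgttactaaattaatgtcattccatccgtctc
Eip78C (chr3L:21253856-21253956): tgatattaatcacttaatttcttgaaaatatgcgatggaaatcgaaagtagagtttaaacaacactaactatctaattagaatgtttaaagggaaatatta
In these 3 windows the A and T content was 78.2% for CG11050, 71.3% for ush and 75.2% for Eip78C, and the signals were 2540.4, 2459.85 and 1278. None of the 11 windows held GAGAG or ACAAAG.

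Signal is the authors' own value for each peak, on a scale that is not stated, and it is compared here only within a list. The 1393 summits had a median signal of 135.5, with quartiles of 96.2 and 218.8 and a range from 76.7 to 2540.4. The median over all 7055 peaks was 135.4. It was 124.6 for introns over 5 kb from a start, 127.3 for intergenic summits at 1 to 5 kb and 145.5 for summits within 1 kb of a start. The intronic summits thus had about the median of the list as a whole. Their share was also flat along the pooled list of 30000 entries, which includes background: 19.5% of the 3000 strongest, 22.5% of ranks 12001 to 15000, and 19.2% of the 3000 weakest. Over the same list the share within 1 kb of a start fell by rank from 52.0% to 22.8%, and that of introns over 5 kb went from 13.3% to 24.2%. At the very top they were fewer, with 15 of the 100 strongest optimal peaks.

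**Figure D1:**
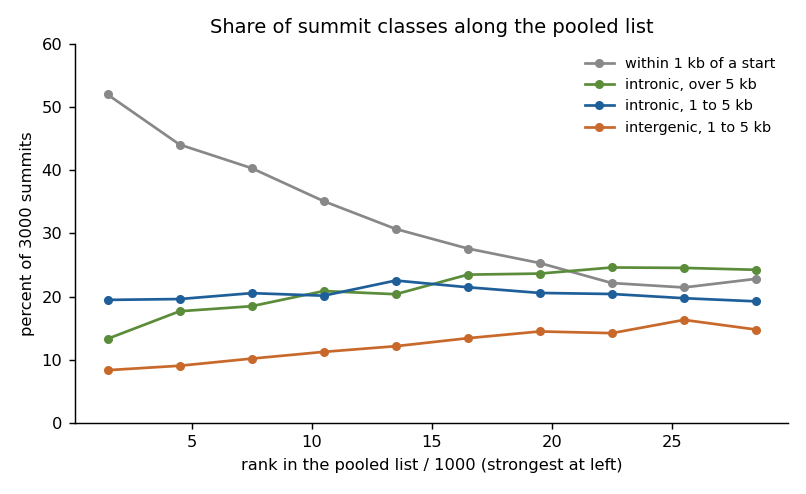
Percent of summits in each position class (y axis) for successive groups of 3000 entries of the pooled list, by rank from the strongest at left (x axis, ranks divided by 1000). The blue line, introns 1 to 5 kb from a start, stays between 19.2% and 22.5%, while the grey line, within 1 kb of a start, goes from 52.0% to 22.8%.

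Read against the room the rule leaves, the sites were somewhat denser than the list as a whole. The rule admits 19.7 Mb, 14.7% of the 6 arms, and 70.7 summits fell per Mb of it, beside 52.7 optimal summits per Mb of all sequence. Such summits made up 19.7% of the optimal list. Their share was also 19.2% at ranks 27001 to 30000 of the pooled list, its weakest entries, and that list includes background. No density is given for the other position classes, so the excess is not read as a binding preference of these sites. Density of the intronic sites was 81.9 per Mb on X, 74.8 on 3L, 74.3 on 2R, 65 on 3R and 61.6 on 2L. Chromosome 4, the small and largely heterochromatic chromosome, had 2 summits, or 7.90 per Mb. Both lay in intron 1 of Sox102F itself, which is 5454 bp long. The first had a signal of 145.9 (43.3 in replicate 1 and 96.1 in replicate 4), and the second 103.2 (53.1 and 49.0). Neither window held a core word, and their A and T content was 51.5% and 45.5%. The line is transgenic for Sox102F-GFP, and whether that affects the signal at this gene was not tested. Annotated transposable elements held 1 of the 1393 summits (0.0718%) and 4.80% of the admitted bases. Of all optimal summits, 18 (0.255%) lay in such an element, so the scarcity is not particular to the intronic sites. How repeats were treated in alignment is not given in the sources used here.

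Most of these sites were found in both replicates. Of the 1393, 951 (68.3%) were matched in both replicates, meaning that each replicate's 7055 strongest entries included a summit at most 100 bp away, as were 67.9% of all optimal peaks. A further 170 were matched only in replicate 1, 222 only in replicate 4 and 50 in neither. When all 30000 entries of each replicate were searched, 1293 (92.8%) were in both. Repeatability followed signal, being 14.3%, 70.7%, 90.8% and 97.4% in 4 equal groups from the weakest to the strongest. The optimal list is cut by pooled signal, so its weakest members lie near that limit by construction. Over the 1293 with both values, the Spearman correlation of the replicates was 0.73 (sites share libraries, so no p is given), and the median ratio of the larger to the smaller signal was 1.26. In 131 (10.1%) the replicates were over 2-fold apart.

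**Figure D2:**
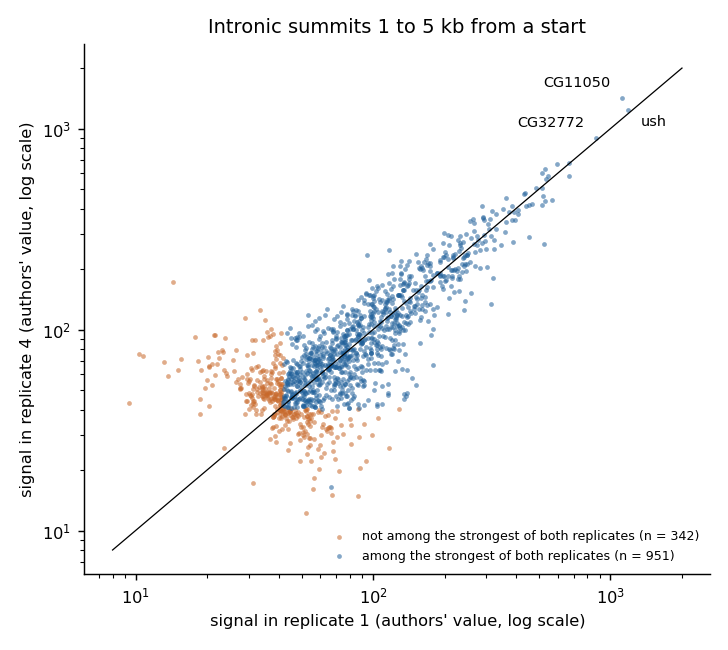
Signal in replicate 1 (x axis) against replicate 4 (y axis), both the authors' values on log scales, for the 1293 intronic summits with an entry within 100 bp in each list; the nearest entry is used. Blue points (951) are among the strongest 7055 of both replicates, orange points (342) are not, and the line marks equal values. The strongest sites lie close to the line and the scatter is at low signal.

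The strongest sites sat in regulators of transcription, signalling and cell polarity as well as in genes known only by a number. CG11050 had the highest signal (1116 in replicate 1 and 1420.45 in replicate 4). Its summit, 1019 bp from the gene's start, lay in intron 2, which is only 140 bp long, so that the 595-bp peak reached the exons beside it. The second, in the 13185-bp intron 1 of ush, had 1182 in replicate 1 and 1236 in replicate 4. The ush protein is a zinc-finger partner through which GATA factors are held in check. The nearest start to this summit was that of cbt, a zinc-finger transcription factor gene. That start lies inside the same ush intron, and the summit was 1395 bp upstream of it.

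A pair of ecdysone-induced nuclear receptor genes held the fifth and sixth strongest sites. Eip78C had 598 in replicate 1 and 668 in replicate 4, in a 22192-bp intron 1. Hr4 had 669 and 583, in a 10387-bp intron 1, at a window with 57.4% A and T, the lowest of the 20 strongest. Both genes belong to the hormone cascade that runs at this stage, and in both the nearest start belonged to another gene.

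Other strong hosts act in RNA control, kinase signalling and polarity. The summit in pum, which encodes an RNA-binding translational repressor, had 531 in replicate 1 and 626 in replicate 4. That in for, a cGMP-dependent protein kinase gene, had 514 and 598. For crb, the apical polarity protein Crumbs, the values were 516 and 507, at 1003 bp from its start and so just inside the limit. In all 3 genes the replicates were close, and only pum held the summit beyond its first intron, in intron 3.

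Chromatin and ubiquitin genes were also among the 20. Trl, which encodes the GAGA factor, had 521 in replicate 1 and 459 in replicate 4. Tet, the fly member of the TET dioxygenase family, had 513 and 414. The ubiquitin-conjugating enzyme gene eff had 431 and 475, and neur, a ubiquitin ligase gene of Notch ligand uptake, had 454 and 417. The remaining hosts were CG32772, CG12769, babos, CG32264, CG3726, Pits, norpA (the phospholipase C of vision), CG9837 and Tlk (a chromatin-assembly kinase), with signals from 882 to 1756. All 20 were among the strongest of both replicates, and their replicates differed by at most 1.28-fold. Of the 20, 16 were in a first intron, 16 had their host's own start as the nearest, and 8 had the SOX core word. Their A and T content had a median of 71.8% (57.4 to 78.2%).

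The introns that held the summits tended to be first introns and long. Numbers were counted from the 5′ end in the shortest host intron that holds the summit. By this count 889 (63.8%) were in intron 1, with a 95% Wilson interval of 61.3 to 66.3%. That interval is over peaks, which are not replicates, and covers counting error alone. Of the admitted bases, 48.4% lie in intron 1. Intron 2 held 25.1% of summits and 26.9% of admitted bases, and later introns 11.1% and 24.6%. The strongest entries of replicate 4 alone gave 64.5% in intron 1 and those of replicate 1 alone 65.7%. Counting any transcript, 71.4% of summits and 54.3% of admitted bases were in a first intron. Median signal was 137.9 in first introns and 130.9 in later ones.

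First introns lie near starts, so distance moves with intron number, and the comparison was also made within distance. At 1 to 2 kb from a start, 69.2% of summits and 55.6% of admitted bases were in intron 1. At 4 to 5 kb the shares were 54.2% and 40.7%. When the admitted bases were weighted to the summits' mix of distance and intron length, their first-intron share was 55.3%, which left a difference of 8.51 percentage points in place of 15.4. The difference was not tested.

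The median length of the holding intron was 9210 bp, with quartiles of 4638 and 17425 bp, and ran from 118 to 126467 bp. For admitted bases the median was 7666 bp. Introns under 2 kb held 101 summits (7.25%) but 19.3% of admitted bases, and those over 10 kb held 46.7% and 41.9%. Signal did not follow intron length, with medians from 133.1 to 142.0 across 6 length classes. Summits lay at a median of 34.7% of the way along the intron. A splice site was within 100 bp of 17 summits, and 59 peaks (4.24%) overlapped an exon.

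**Figure D3:**
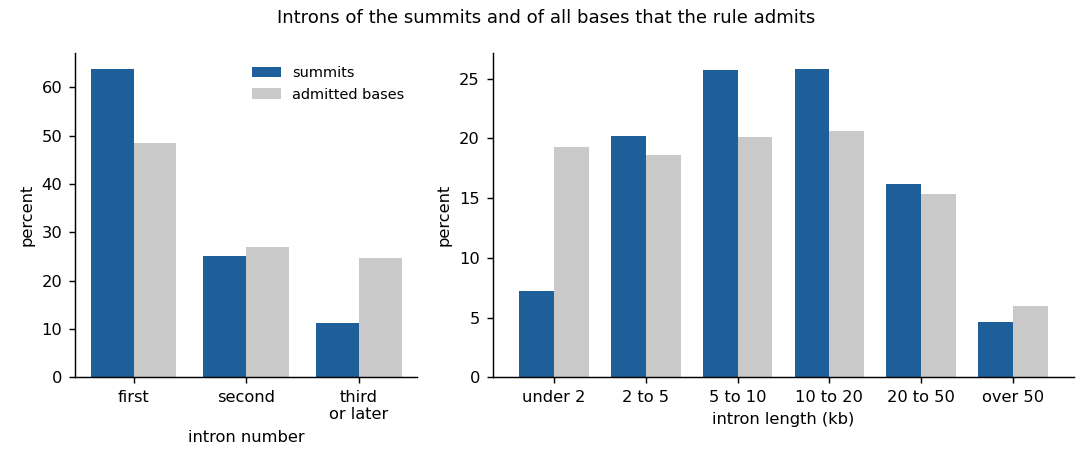
Percent of the 1393 intronic summits (blue) and of the admitted bases, sampled every 100 bp (grey), by intron number (left) and by intron length in kb (right). Intron 1 holds 63.8% of summits and 48.4% of admitted bases, and introns under 2 kb hold 7.25% and 19.3%.

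Within the range, the sites thinned with distance. There were 574 at 1 to 2 kb (83.6 per admitted Mb), 356 at 2 to 3 kb (68.1), 249 at 3 to 4 kb (59.4) and 214 at 4 to 5 kb (62.5), and the median distance was 2290 bp. The nearest start belonged to the host in 1019 (73.2%), which lay downstream of that start in 765 and upstream of it, in a longer transcript, in 254. In 374 it belonged to another gene, most often a protein-coding (194) or non-coding RNA gene (147). Median signal was 138.5 near the host's own start and 126.9 near another gene's.

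Sites next to the limits were as follows. Just inside the lower limit lay CG13004 at 1001 bp (signal 132.6) and Gyg at 1003 bp (709.4). Just outside, both at 1000 bp, lay C3G (145.2) and Nipsnap (94.3). Just inside the upper limit lay CG45263 at 4996 bp (84.3) and sgg at 4994 bp (77.3), and just outside, both at 5015 bp, erm (90.7) and cv-c (383.6).

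The 1393 summits fell in 780 host genes, which is 5.59% of the 13945 protein-coding genes and 11.4% of the 6851 that hold at least 1 admitted base. Of the summits, 1324 had a single host, 66 had 2 and 3 had more. A single summit was found in 434 hosts, 2 in 199, and 3 or more in 147. Hosts were long, with a median of 20678.5 bp beside 5002 bp for genes with an admitted base. The share of such genes that were hosts was 0.847% under 5 kb, 8.74% at 5 to 10 kb, 23.3% at 10 to 20 kb, 36.4% at 20 to 50 kb and 46.6% above. Longer genes hold more admitted bases, so length and host share move together.

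Host genes also had promoter sites more often than other genes. An optimal summit within 1 kb of the gene's own start was found for 502 hosts (64.4%), and for 23.7% of the 6071 other genes with an admitted base. Within each of 5 length classes the shares were 51.7 to 67.0% for hosts and 17.8 to 33.7% for the others. Hosts had a median of 2 annotated starts, beside 1 for all genes with an admitted base. The comparison was not matched for the number of starts. The differences in promoter sites were not tested. A summit deeper in an intron, over 5 kb from any start, was present in 264 hosts (33.8%), and 182 hosts had neither kind. The share of other genes with such a deeper summit was not computed, so the 33.8% has no comparison.

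The 10 genes with the most sites were 38561 to 394149 bp long. Sites are counted as summits, and some are not independent: those of shn at 319.3 and 230.3 share the same peak interval. The genes shn, a zinc-finger factor of Dpp signalling, and psq, a BTB-domain DNA-binding factor, had 11 each. The 11 sites of shn had signals from 90.8 to 509.3 in 4 introns, and 9 were among the strongest of both replicates. Those of psq ran from 77.0 to 344.3 in 3 introns, and 7 were in both. Eip75B, the ecdysone-induced nuclear receptor gene, had 10, from 79.8 to 337.1, of which 4 were in both replicates, and it held 10 deeper intronic summits as well.

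Tlk had 9 sites from 86.5 to 882, and CG1677 had 9 from 77.1 to 389.4, of which the strongest lay also inside the nested autophagy gene Atg5. The 8 sites of ush spanned 97.2 to 2459.85, so that its strongest stood far above the second, at 358.1, and all 8 were in both replicates. The chromatin gene tou and the actin-associated Svil had 8 each, with maxima of 384.0 and 278.2. The corepressor gene sbb had 7 sites up to 694.1 and the adhesion gene kirre 7 up to 378.6. The kirre sites at 365.1 and 351.3 lay also inside the nested gene CG32795. For all 7 sites of sbb and all 9 of CG1677, the nearest start belonged to a gene other than the one named. Of the 10 genes, kirre alone had no optimal summit within 1 kb of its own start. The lowest maximum of the 10 was 278.2, in Svil, and ush and Tlk each hold 1 of the 20 strongest sites.

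Gene groups were described by how many members hold an intronic site of this kind, beside the 11.4% of all genes with an admitted base. The shares were not tested, and the genes had been listed with earlier results of these data known. Genes were matched by exact symbol, and 35 written symbols had no match. Because hosts are long, the share that all genes would give at each list's mix of gene lengths is also stated.

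Matching the unmatched symbols to the genes' current names, a step added after the values were seen, brought in 15 genes, of which 3 were hosts. These were the Notch ligand gene Delta (signal 123.9; 55.7 in replicate 1 and 70.4 in replicate 4), the atypical myosin gene dachs (246.9; 123.3 and 128.7) and the ecdysone importer gene Oatp74D (123.2; 74.96 and 52.6). With them the Notch pathway had 8 of 20 hosts, the Hippo and Fat-Dachsous list 7 of 22 (31.8%, beside 19.3%) and the ecdysone list 15 of 24 (62.5%, beside 32.2%). No list moved to the other side of the share at its lengths. The counts below are by symbols as written.

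Hormone and signalling lists stood high. Of the ecdysone response genes, 14 of 22 with an admitted base were hosts (63.6%, beside 33.5% at the same lengths). Their strongest sites were in Eip78C and Hr4, above, and the list also included ImpL2, Eip63E, tai, Eip75B, ken, ftz-f1, crol, EcR, Blimp-1, Hr3, Eip74EF and Kr-h1. The hosts thus spanned the receptor EcR, its coactivator tai and early and late response genes. Of the nuclear receptor genes outside that list 0 of 7 were hosts, beside 21.5% at the same lengths. With 7 genes this is a difference of few hosts, and the receptors were split between the lists with earlier results known. No contrast is therefore read from it.

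For the Wnt pathway 13 of 25 were hosts (52.0%, beside 24.2%), led by the receptor gene fz (signal 704; 316 in replicate 1 and 388 in replicate 4). Its relative fz2 had 7 sites, the strongest at 394.9 (167.6 and 223.4). The EGFR pathway had 10 of 23 (43.5%, beside 23.2%), with the strongest in aop, an ETS repressor gene (361 and 306), and edl, which encodes an antagonist of ETS factors (389.9 and 271.6). The Hedgehog and Dpp pathways had 10 of 24 (41.7%, beside 16.1%), led by a pair of BMP receptor genes, wit (440.3 and 411) and tkv (265 and 309). Notch pathway genes had 7 of 17 (41.2%, beside 20.9%), led by neur and by mam, the Notch coactivator (264 and 353). The 13 Wnt hosts were receptor, ligand, proteoglycan, kinase and feedback genes, while aop and mam act in the nucleus.

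Smaller counts were seen for other signalling lists. The Hippo and Fat-Dachsous list had 6 of 21 (28.6%, beside 18.5%), led by crb and by the upstream regulator ex (352 in replicate 1 and 398 in replicate 4). Insulin and TOR genes had 7 of 22 (31.8%, beside 12.6%), led by the TOR inhibitor gene chrb (82.4 and 123.7) and by foxo (72.6 and 104.2). The JNK and AP-1 list had 5 of 15 (33.3%, beside 19.4%), led by the kinase gene msn (240.7 and 206) and by kay, the fly Fos (121.6 and 142.1). JAK-STAT had 3 of 11 (27.3%, beside 12.7%), led by the feedback inhibitor Socs36E (118.7 and 116.2) and by ken, a repressor (128.4 and 98.3). Of these 8 leading genes, those of the insulin and TOR list had the lowest signals in replicate 1.

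Among regulators of transcription and RNA, 10 of 19 zinc finger and GATA regulators were hosts (52.6%, beside 35.9%), led by ush and by the epithelial factor grh (273 and 293). RNA-binding protein genes had 13 of 30 (43.3%, beside 31.7%), led by pum and by heph, the fly polypyrimidine tract-binding protein (361 and 453). The Hox list had 4 of 8 (beside 35.7% at the same lengths), and the sites in Antp (114.6 and 140.2) and Abd-B (71.1 and 45.3) were its strongest. Chromatin factors had 7 of 35 (beside 13.9%), led by Trl and Tet. Imaginal disc patterning genes had 4 of 31 (12.9%, beside 23.8%), with bab1 (142.4 and 136.6) and al (100.8 and 86.3) strongest. The disc patterning regulators, which are transcription factor genes for the most part, were thus below the share of all genes of their lengths.

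Genes of cell shape and contact gave unequal shares. Cytoskeletal genes had 12 of 23 (52.2%, beside 24.0%). Their strongest site, in the cofilin gene tsr, had a pooled signal of 498.7 and 244.9 in replicate 1, with no replicate 4 entry within 100 bp. The next, in sn, the fly fascin, had 185.7 and 191.8. Axon guidance genes had 11 of 30 (36.7%, beside 30.3%), led by the phosphatase receptor Ptp10D (386 in replicate 1 and 413 in replicate 4) and the exchange factor trio (386 and 352). Cell adhesion genes had 13 of 41 (31.7%, beside 37.7%), led by the teneurin Ten-a (269.9 and 242.6) and by kirre (190.6 and 186.9). Tracheal genes had 5 of 14 (35.7%, beside 22.9%), led by the matrix protein genes pio (115.3 and 188.2) and dpy (70.8 and 116.5).

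In the next 5 lists the share of hosts was below that of all genes at the same lengths. For glial, neuroblast and neuron, and heart and mesoderm genes the difference amounted to few genes, so no direction is read from it. Ion channels had 4 of 31 (12.9%, beside 30.4%), with Irk1 (312 and 353) well above KCNQ (21.3 and 93.6). Muscle genes had 2 of 24 (8.33%, beside 22.4%), the integrin gene mys (105.6 and 92.5) and the tropomyosin gene Tm1 (35.8 and 97.3). Glial genes had 1 of 14, the ETS factor gene pnt (67.7 and 100.6), beside 14.5%. Neuroblast and neuron genes had 7 of 26 (26.9%, beside 32.7%), led by brat (198.1 and 230.5) and Syp (86.0 and 109.6), both RNA-binding regulators. Heart and mesoderm genes had 4 of 22 (18.2%, beside 21.3%), led by zfh1 (127.4 and 149.1) and Mef2 (134.4 and 45.0). The replicates of KCNQ, Tm1 and Mef2 were over 2-fold apart.

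Metabolic and cell cycle lists were above the share at their lengths. Fat body and metabolism genes had 5 of 16 (31.2%, beside 15.7%), led by the lipid droplet genes Lsd-2 (95.9 and 149.3) and bmm (99.9 and 147.2). Cell cycle genes had 4 of 21 (19.0%, beside 7.87%), led by CycE (304 and 336) and E2f1 (129.7 and 207.6). Cell death and autophagy genes were close to the share at their lengths, with 2 of 18 (11.1%, beside 8.32%), Atg5 (164.1 and 217.2) and Atg1 (121.8 and 206.2). A pair of other lists lay slightly below the share at their lengths. The Sox family had 1 of 6 (16.7%, beside 19.3%), Sox102F itself. Cuticle proteins had 1 of 19 (5.26%, beside 6.05%), Cpr73D (43.1 and 46.6). No host was found among 6 ribosomal protein genes, 73 odorant and gustatory receptor genes, 23 ionotropic receptor genes and 59 cytochrome P450 genes with an admitted base, groups of short genes whose share at the same lengths was at most 4.72%.

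**Figure D4:**
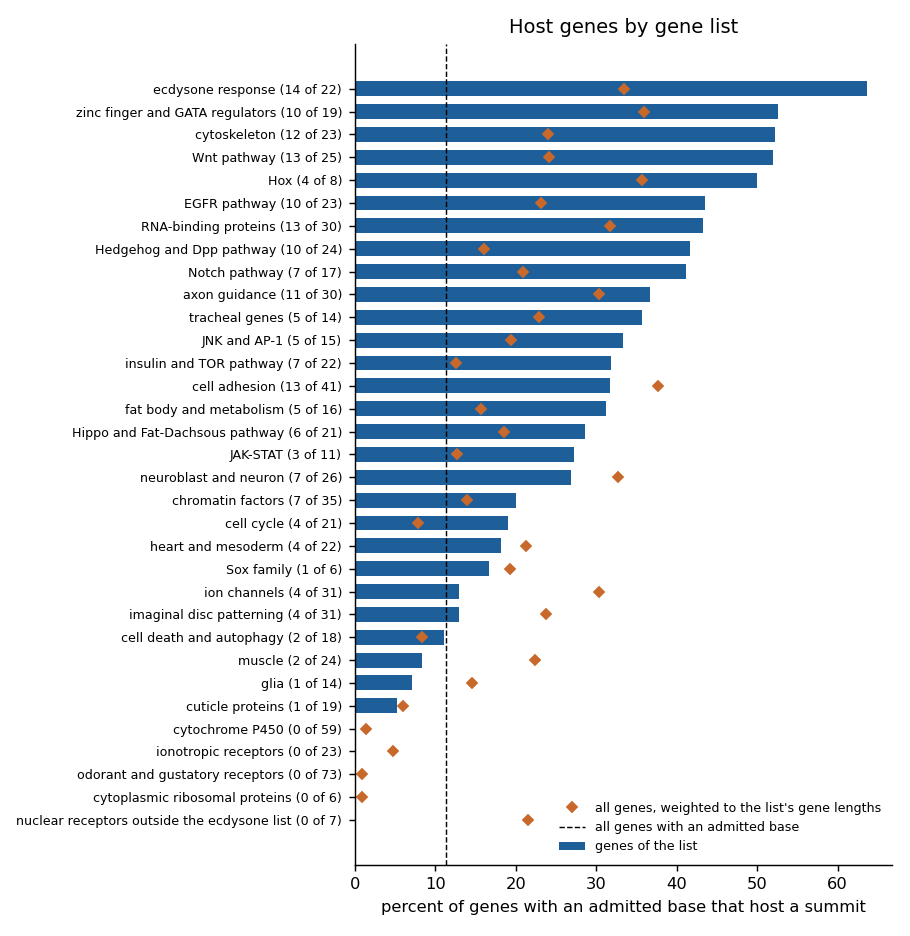
Percent of genes with an admitted base that host an intronic summit 1 to 5 kb from a start, by gene list (bars, with counts beside the names). The dashed line is the 11.4% of all such genes, and diamonds give all genes weighted to the list's gene lengths. The bar lies above the diamond for the ecdysone list (63.6% and 33.5%) and below it for ion channels (12.9% and 30.4%).

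The sequence at the summits was described last. Windows of 101 bp had 66.2% A or T, beside 57.7% and 58.1% in windows 500 bp to each side and 60.2% in admitted windows. Introns over 5 kb from a start had 66.0% and intergenic summits at 1 to 5 kb 66.3%, while summits within 1 kb of a start had 62.3%. A and T content was 64.4% in the weakest of 4 equal groups by signal and 68.1% in the strongest. The stretch was narrow, returning to the level of the flanks by about 150 bp, with a dip below it from 200 to 400 bp.

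The SOX core word lay within 50 bp of 442 summits (31.7%, Wilson interval 29.3 to 34.2%, over peaks). In the flanks the share was 24.3%, in admitted windows 27.2% and at all optimal summits 29.0%. Intronic summits over 5 kb from a start had 31.5% and those within 1 kb of a start 26.2%. By itself this was a difference of 7.43 percentage points from the flanks. It moved with base composition: when flank windows were weighted to the summits' A and T content, they held the word in 30.7%, which left 0.993 points, and admitted windows so weighted held it in 31.2%. At 70 to 75% A and T, for example, 39.0% of summits and 38.9% of flanks had the word.

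Signal and the word were only loosely tied. From the weakest to the strongest of 4 equal groups by signal the share was 30.4%, 31.0%, 30.7% and 34.8%. Median signal was 133.9 for the 951 summits with no core word, 138.1 for the 363 with 1 and 142.6 for the 79 with 2 or more. Both-replicate shares were 67.5%, 70.8% and 65.8%. The longer word ACAAAG, found at 8.33% of summits and 7.82% in the flanks, went the other way. From the weakest to the strongest group its share was 11.7%, 7.18%, 8.91% and 5.46%, and the median signal was 122.6 with it and 136.6 without.

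**Figure D5:**
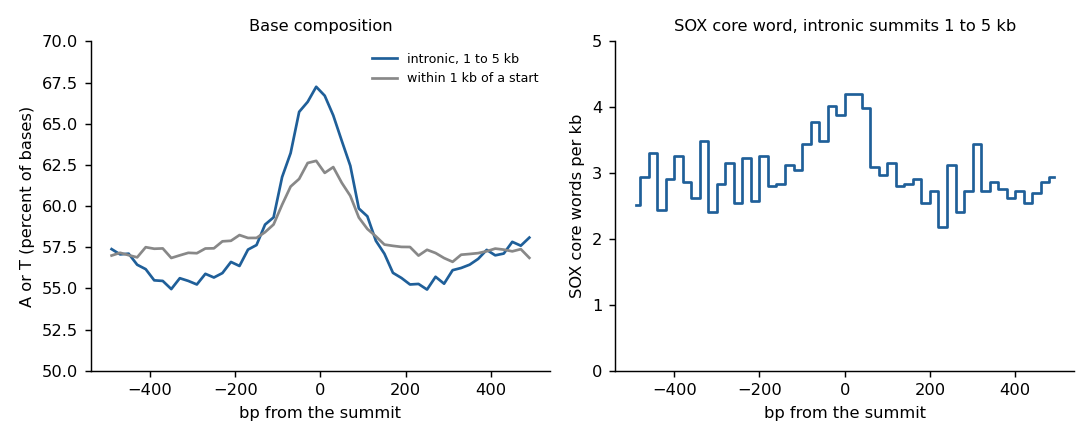
Left, percent of bases that are A or T (y axis, from 50%) by distance in bp from the summit, for intronic summits 1 to 5 kb from a start (blue) and summits within 1 kb of a start (grey). Right, SOX core words per kb of sequence at the former. Both peak at the summit, where the word reaches 4.20 per kb.

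Words of equal composition differed widely among themselves. Among 80 words of 5 letters with 4 A or T and 1 C or G, the core word ranked 52 by its ratio of summit to flank share (1.31, beside a median of 1.38). The first was TAAGA, at 27.1% and 13.6%, and the last CAAAA, at 49.5% and 48.2%. Of 2080 words of 6 letters, with strands joined and ranked by difference, the first was TTAAAA (30.4% of summits, 14.5% of flanks) and the last CAGCCA (3.23% and 8.11%). The best placed word with a SOX core was TACAAT, at rank 60 (11.3% and 5.89%). Homeodomain-type TAATTA was at 9.69% and 7.07%, GATA-type TGATAA at 9.91% and 7.43%, the GAGA-type word GAGAG at 11.7% and 15.8%, and the repeat CACACAC at 2.66% and 5.74%. In admitted windows GAGAG was at 11.0%, slightly below its share at the summits. It was at 14.2% at all optimal summits and 17.3% at those within 1 kb of a start, both above the intronic share. These word matches describe letters only and were not tested as sites.

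Finally, the spacing of the sites to other peaks was measured. The same was not computed for all optimal summits, so these values cannot be called particular to the intronic sites. The nearest other optimal summit was at a median of 1685 bp, 433 (31.1%) were within 1 kb of one and 144 (10.3%) within 250 bp. Summits that close may share one broad region, so they are not independent sites.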

How the data were processed

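Chromatin immunoprecipitation and sequencing of Sox102F-GFP in whole white prepupae was analysed from peak lists deposited on build dm6: 1 for each of the 2 replicates, 1 pooled and 1 named optimal after thresholding by irreproducible discovery rate, per the file names. The signal of each peak and the summit offset are the authors' own deposited values. The sources used here name no aligner, caller, scaling or threshold. No reads were used, so depth is unknown. The optimal list holds 7055 entries, which are the pooled entries with a signal of at least 76.7. The dm3 lists were not used.

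Starts, exons and introns came from Ensembl release 115 (dm6-type assembly), sequence from the RefSeq release 6 assembly. Peak ends lay inside the arm lengths. Admitted bases are those where a summit would be kept, sampled every 100 bp. Words were counted on either strand. Shares weighted to base composition, to distance and intron length, or to gene length were chosen after seeing the data. Python 3.11.15, numpy 2.4.6, pandas 2.3.3 and SciPy 1.17.1 were used, and the functions were tested on simulated data. No test between groups was possible in 1 group, and none over peaks was made.

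The members, 33 gene lists and 25 words were chosen with earlier results of these data known. Symbols were matched exactly, which left 35 unmatched. As an alternative chosen after seeing the data, current names were used for them: 15 brought in a further gene, 14 named a gene already listed and 6 stayed unmatched. Genes named are the hosts of the 20 strongest sites, the 10 hosts with most sites, the 2 hosts with the strongest site in each list and those nearest the distance limits. The other hosts of the ecdysone list were named after their values were seen. Alternatives changed the limits, the starts and exons used, the peaks, the replicates, the intron chosen, the window and flank, and the matching distance.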

Additional observations from a re-analysis of the deposited data

How the results depend on the processing

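Counts fell by over 1.5 times under a pair of alternatives. With a lower limit of 2 kb there were 819 sites in 502 hosts, and among the stronger 3528 peaks of the list 698 in 496. No difference reversed. Median signal was 138.6 with a lower limit of 500 bp, 131.9 with 2 kb, 138.5 with 5′ ends of genes only and 218.7 among the stronger peaks. With each replicate alone it ran from 69.8 to 73.8, on the scales of those lists, with 1314 to 1393 sites in 737 to 785 hosts. The first-intron share was 67.7% at 500 bp, 60.1% at 2 kb, 69.2% with 5′ ends of genes, 66.1% with protein-coding starts, 65.3% among the stronger peaks and 60.7% with the longest intron. Each replicate alone gave 64.5% to 65.7%. Its difference from admitted bases was 8.51 points at equal distance and length. Median intron length was 7804 bp at 500 bp, 10711 at 2 kb, 6940.0 with 5′ ends of genes, 8862 with protein-coding starts, 9244 outside the host's exons only, 9196 with the strongest of close summits, 12650.0 with the longest intron and 9336 with a single host, and 9029 to 9048 with each replicate. The core word share was 32.2% at 2 kb, 30.7% with 5′ ends of genes, 31.1% with protein-coding starts, 32.8% among the stronger peaks, 32.3% with the strongest of close summits, 17.2% within 25 bp and 50.04% within 100 bp, and 31.4% to 31.9% with each replicate. Its difference from the flanks was 8.79 points at 2 kb, 9.89 among the stronger peaks, 4.16 within 25 bp, 5.53 with flanks at 1000 bp and 0.993 at equal A and T content, and 6.46 to 8.11 with each replicate. The both-replicate share was 55.7% within 50 bp and 74.6% within 200 bp.

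No paired analysis was possible because there was 1 group. The other 35 of 77 alternative values moved by less than the spread between replicates, or for counts by less than 1.5 times. With 2 samples that spread is itself poorly known. Depth is unknown, so it could not be judged how many weaker sites were missed.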
